A study of Mus musculus with 17 samples.

Results

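STAT6 sites that were occupied under both IL4 treatments and carried no peak of the other factors mapped in the same macrophages numbered 6743. They were 27.1% of the 24927 STAT6 peaks listed with IL4 alone and 39.4% of the 17135 that were shared with IFNg+IL4. A site was counted when its IL4 peak overlapped, by at least 1 bp, a STAT6 peak of cells given IFNg and IL4 together, and overlapped no peak in any of 14 lists of IRF1, JUNB, CEBPB and MYC. They are called lone shared sites here, where lone means that no peak of these 4 factors was listed over them. The sites were selected on the overlaps of the peak lists themselves, so presence of STAT6, its peak values and the absence of the other factors are descriptions of the choice and are given without a test.

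The data were narrow peak lists of 17 ChIP-seq libraries, 16 of a factor and 1 of input DNA, from macrophages grown out of C57BL/6 bone marrow and taken on day 7 of differentiation. STAT6 was mapped 2 h after IFNg (100 ng/ml) with IL4 (10 ng/ml), and 2 h after IL4 (10 ng/ml) alone. IRF1, JUNB and CEBPB were each mapped 4 h after IFNg+IL4, 4 h after IFNg and in untreated cells, at the same concentrations, and MYC 2 h and 4 h after IFNg+IL4, 2 h and 4 h after IL4 and in untreated cells. Each combination was 1 library, so no value below has a replicate and intervals cover counting error only. STAT6 in untreated cells, and IRF1, JUNB or CEBPB with IL4 alone, were not analysed here. The titles of the IRF1, JUNB, CEBPB and MYC libraries mark the cells as wild type (wt). Those of the STAT6 and input libraries carry no such mark, and no genetic change is stated for any. Expression was not measured in these libraries, so the cell type is as labelled and was not checked against marker genes. The labels do not say how many mice gave the marrow. The lists hold peaks and no read totals, so depth is given as list length: 21481 STAT6 peaks with IFNg+IL4 and 24927 with IL4, and between 244 (IRF1, untreated) and 21499 (CEBPB, IFNg) for the other factors.

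STAT6 is the transcription factor of the interleukin 4 receptor. When IL4 binds its receptor, JAK kinases phosphorylate STAT6, which pairs, enters the nucleus and binds palindromes of TTC and GAA separated by a short spacer. In macrophages this drives the alternative activation program, with genes such as Arg1, Retnla and Mrc1. IRF1 is the interferon gamma-induced factor that binds GAAA repeats, JUNB is an AP-1 subunit, CEBPB is a lineage factor of myeloid cells and MYC is a growth regulator that binds E-boxes, often at gene starts. A site without a peak of these factors need not be free of other proteins: PU.1, the master factor of macrophages, and other AP-1, CEBP or IRF members were not among the libraries.

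Sequence could be read where a lone shared site fell in a promoter. The summits of 164 of the 6743 sites lay within windows that run from 250 bases before to 50 bases after a gene start. The RefSeq promoter table of GRCm38.p6 holds 21263 such windows of 300 bases. Each window was searched on both strands for 2 strings: TTC and GAA with any 4 bases between them, the spacing that STAT6 is known to prefer (the N4 palindrome), and TTCNNNGAA, with 3 bases between, which most STAT proteins use (the N3 palindrome). The promoters of 6 genes are printed 5′ to 3′ on the strand of the gene, with matches in capitals; coordinates and strands are those of GRCm38.p6. Hebp2 (chr10:18546027-18546326, minus strand), Ttc30a2 (chr2:75978130-75978429, minus strand) and Aar2 (chr2:156547326-156547625, plus strand) are shown because they held the 3 strongest promoter sites with IL4. Clec7a (chr6:129472736-129473035, minus strand), Oas1a (chr5:120907476-120907775, minus strand) and Ms4a4a (chr19:11375238-11375537, plus strand) were picked after their values were seen, as an innate receptor gene with 1 match, an antiviral gene with 3 matches and a strong site with none.
Hebp2: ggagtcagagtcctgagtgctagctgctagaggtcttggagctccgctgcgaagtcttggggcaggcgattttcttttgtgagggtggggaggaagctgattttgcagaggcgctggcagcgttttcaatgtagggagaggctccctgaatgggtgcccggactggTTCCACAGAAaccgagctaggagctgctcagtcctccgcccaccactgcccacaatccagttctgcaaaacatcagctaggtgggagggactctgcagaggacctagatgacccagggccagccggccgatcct
Ttc30a2: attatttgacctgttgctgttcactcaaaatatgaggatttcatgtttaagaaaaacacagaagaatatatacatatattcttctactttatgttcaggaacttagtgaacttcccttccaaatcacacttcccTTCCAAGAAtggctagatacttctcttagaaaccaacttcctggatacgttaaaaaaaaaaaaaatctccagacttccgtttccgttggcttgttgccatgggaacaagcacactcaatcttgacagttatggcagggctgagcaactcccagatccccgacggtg
Aar2: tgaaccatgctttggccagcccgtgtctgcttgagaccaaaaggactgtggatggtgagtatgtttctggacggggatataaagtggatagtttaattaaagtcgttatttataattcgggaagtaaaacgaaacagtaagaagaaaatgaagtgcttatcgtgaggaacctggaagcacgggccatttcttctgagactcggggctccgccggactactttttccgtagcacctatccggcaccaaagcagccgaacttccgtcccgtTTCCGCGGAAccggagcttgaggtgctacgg
Clec7a: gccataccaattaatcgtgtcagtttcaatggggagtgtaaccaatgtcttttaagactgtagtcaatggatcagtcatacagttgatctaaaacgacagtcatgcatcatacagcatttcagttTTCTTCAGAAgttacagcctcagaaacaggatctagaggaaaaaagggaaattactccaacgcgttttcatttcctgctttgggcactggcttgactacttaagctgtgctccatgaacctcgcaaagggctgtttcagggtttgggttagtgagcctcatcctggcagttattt
Oas1a: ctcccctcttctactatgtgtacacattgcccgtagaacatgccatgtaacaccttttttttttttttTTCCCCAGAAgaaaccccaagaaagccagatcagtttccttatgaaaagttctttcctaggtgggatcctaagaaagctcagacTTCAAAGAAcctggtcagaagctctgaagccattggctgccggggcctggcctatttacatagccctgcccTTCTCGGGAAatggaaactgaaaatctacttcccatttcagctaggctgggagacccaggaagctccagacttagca
Ms4a4a: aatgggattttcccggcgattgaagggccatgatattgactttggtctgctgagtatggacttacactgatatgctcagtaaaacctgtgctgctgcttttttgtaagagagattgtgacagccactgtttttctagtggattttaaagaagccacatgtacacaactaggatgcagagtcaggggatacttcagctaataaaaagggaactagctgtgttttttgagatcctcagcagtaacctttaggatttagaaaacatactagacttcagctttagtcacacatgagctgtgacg

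In every value below the peak's −log10 p and fold enrichment over input are those of the authors' peak caller, and they rank peaks within 1 list only. The promoter site of Hebp2, which encodes a heme-binding protein, had a −log10 p of 94.8 with IFNg+IL4 and 215 with IL4. Its STAT6 summit lay 42 bases before the gene start and 37.5 bases from the centre of the N4 palindrome. Ttc30a2, an intraflagellar transport gene, had 122 with IFNg+IL4 and 164 with IL4, with its summit 4 bases from the centre of the N3 palindrome. In both promoters a single match stood near the summit.

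Aar2, a gene of spliceosome assembly, had a −log10 p of 150 with IFNg+IL4 and 159 with IL4, with the N4 palindrome centred 7.5 bases from the summit. Clec7a, which encodes the fungal receptor Dectin-1, had 74.3 with IFNg+IL4 and 114 with IL4. Oas1a, an antiviral oligoadenylate synthetase gene, had 44.4 with IFNg+IL4 and 38.5 with IL4, and its window held 2 N4 palindromes and 1 N3 palindrome. Ms4a4a, a membrane protein gene, had 15.2 with IFNg+IL4 and 88.9 with IL4 with neither string in its window, which says only that these letters are not within these bases. Over the 6 promoters the nearest peak of another factor was between 0.738 kb away, at Ms4a4a, and 63.4 kb away, at Hebp2.

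Over all 164 promoters, the N4 palindrome was present in 40, or 24.4% (exact 95% interval 18.03 to 31.7%), and the N3 palindrome in 25, or 15.2%. At least 1 of these strings occurred in 36.0% (28.6 to 43.8%). The same was true of 22.0% (19.6 to 24.6%) of the 1094 promoters that held a shared site overlapping another factor, and of 13.4% of all promoter windows. The N4 palindrome alone was found in 13.0% (11.04 to 15.1%) of the promoters with other shared sites and in 6.35% of all windows. Within 50 bases of the summit it occurred at 22 of the 127 lone shared sites whose summit surroundings were complete, 17.3% (11.2 to 25.04%), and in 1.82% of all windows over their central stretch of that length. For the other shared sites this was 10.1% (8.15 to 12.4%), and the N3 palindrome was in 10.3% (8.59 to 12.3%) of their promoters, against 15.2% (10.1 to 21.7%) of the lone shared ones. The intervals of lone and other shared promoters were apart for the N4 palindrome over the whole window and for either string, and overlapped for the N3 palindrome and for the N4 palindrome near the summit.

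The share with a palindrome was higher at stronger sites, and base composition differed between the groups. At or above the median strength of the lone shared promoters (−log10 p 14.3 with IL4), at least 1 palindrome was in 52.4% (41.1 to 63.6%) of 82 lone shared promoters and in 30.6% (26.6 to 34.7%) of 520 other shared promoters. Below it the shares were 19.5% (11.6 to 29.7%) and 14.3% (11.5 to 17.4%), with intervals that overlap. Median GC content was 55.2% in the lone shared promoters and 60.0% in the other shared ones, most of which overlapped a MYC peak. Against the 156 promoters whose shared site overlapped a factor but not MYC, with a median GC content of 49.7%, the intervals overlapped: 36.0% (28.6 to 43.8%) held a palindrome among lone shared promoters and 29.5% (22.5 to 37.3%) among these. The part of base composition in the difference was not tested.

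The letters bound by the excluded factors were searched in the same windows on both strands. AP-1 letters (TGANTCA) were in 3.05% (0.997 to 6.97%) of the lone shared promoters, in 18.1% of the 105 promoters whose shared site overlapped both JUNB and CEBPB, and in 6.99% of all windows. CEBP letters (TTGCNNAA) were in 4.27% of the lone shared promoters, 18.1% of those with JUNB and CEBPB and 10.2% of all windows. Interferon response letters (GAAA, any 2 bases, GAAA) were in 6.71% of the lone shared promoters, 9.52% of those with JUNB and CEBPB and 3.35% of all windows, and the letters of PU.1 (GAGGAAGT) in 6.10%, 14.3% and 3.13%. The E-box (CACGTG) was in 7.93% of the lone shared promoters, 13.97% of the 938 with a MYC peak and 7.84% of all windows. In the 156 promoters with a factor but not MYC, AP-1 letters were in 11.5%, CEBP in 16.7% and interferon in 18.6%. There PU.1 letters were in 8.97% and the E-box in 1.92%. Over all 1094 other shared promoters the 5 shares, in the same order, were 6.86%, 8.96%, 6.22%, 6.49% and 12.2%. The interferon letters can overlap the GAA end of a STAT string, and the others can stand beside it. So few lone shared promoters held AP-1 or CEBP letters that these shares rest on 5 and 7 windows. The lone sites were chosen for having no IRF1, JUNB, CEBPB or MYC peak. The 105 were chosen for having both JUNB and CEBPB, and the 938 for having MYC. The AP-1, CEBP, interferon and E-box shares are therefore not independent of the choice and are given as description.

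**Figure D1:**
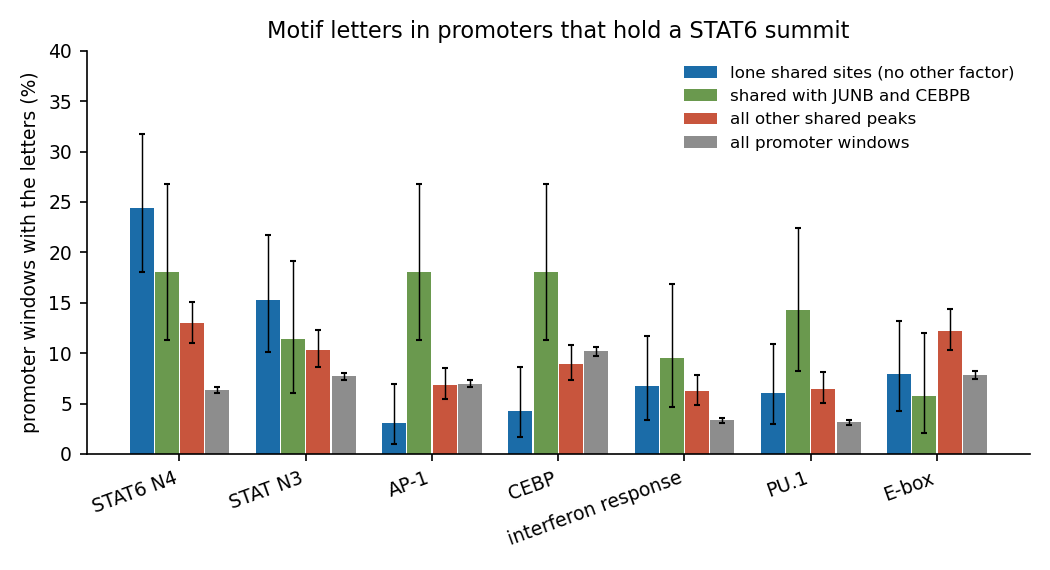
Share of promoter windows (percent, with exact 95% intervals for counting error) that hold each motif, for promoters with a lone shared site, with a shared site of JUNB and CEBPB, with any other shared site (those included), and for all windows. The N4 STAT6 string was in 24.4% of lone shared promoters, while their AP-1 and CEBP shares were 3.05% and 4.27%. The lone sites were chosen for having no IRF1, JUNB, CEBPB or MYC peak.

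Most STAT6 peaks that overlapped another factor did so with CEBPB or JUNB. Of the 17135 shared sites CEBPB overlapped 34.3%, JUNB 32.9%, MYC 26.4% and IRF1 12.9%, and these sets overlap each other. A single factor removed 4814 sites: 1795 were removed by MYC alone, 1431 by CEBPB alone, 1182 by JUNB alone and 406 by IRF1 alone. All 4 factors lay over 324 sites. Single lists also mattered, since the CEBPB list with IFNg alone was the sole reason for 752 exclusions, the MYC list 2 h after IL4 for 474, and the untreated JUNB list for 447. Unlike the others, the untreated JUNB list met no q threshold, and 5355 of its 9229 peaks had a −log10 q of at least 2. With only those JUNB peaks, 7025 shared sites were lone. The other factors were mostly mapped 4 h after treatment and STAT6 at 2 h, so the absence of a factor refers to those times.

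STAT6 peaks that lacked the other factors were kept less often. Of the 11424 IL4 peaks with no other factor 59.0% (58.1 to 59.9%) had an IFNg+IL4 peak, and of the 13503 with at least 1 other factor 77.0% (76.2 to 77.7%) had one. Over all IL4 peaks this share was 68.7%. Put the other way, 39.4% (38.6 to 40.1%) of shared sites were lone, against 60.1% (59.0 to 61.2%) of the 7792 IL4 peaks without an IFNg+IL4 peak, and 47.9% of the 4236 IFNg+IL4 peaks without an IL4 peak. Of all IL4 peaks 45.8% lacked the other factors. Lone shared sites had a median −log10 p of 29.1 and a median width of 294 bp, against 10.6 and 181 bp for peaks without an IFNg+IL4 partner, which were weaker and narrower. Split by strength into 10 equal classes of the IL4 list, lone peaks were less frequent among shared sites than among unshared ones in each of the 9 classes that held unshared peaks. The rule that chose the sites used these overlaps, so the counts describe it.

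**Figure D2:**
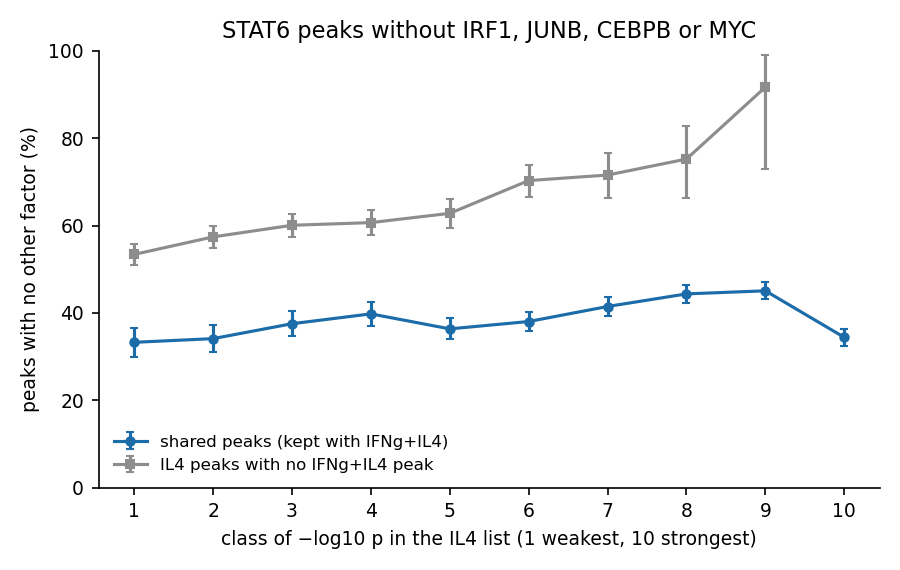
Share of peaks without another factor (percent, exact 95% intervals) by class of −log10 p in the STAT6 IL4 list, class 1 weakest and class 10 strongest, for peaks shared with IFNg+IL4 and for those in the IL4 list only. Shared sites ran from 33.3% in class 1 to 45.1% in class 9 and 34.4% in class 10, below the unshared peaks in all 9 classes that held any.

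Strength at the lone shared sites covered almost the whole range of the list. Their −log10 p with IL4 ran from 4.64, at a site inside Ywhab, to 397, with a median of 29.1, and their median fold enrichment was 11.5 (quartiles 7.46 and 20.3). The other shared sites had a median −log10 p of 26.3 and fold of 9.97, and the shared sites with both JUNB and CEBPB 34.1 and 11.8. Lone shared sites were narrower than the other shared ones, with medians of 294 and 334 bp, and this held in 10 of 10 strength classes. Wider peaks have more room to overlap another list, and the part of width in the choice of sites was not tested. Among the 100 strongest STAT6 peaks 7 with IFNg+IL4 and 17 with IL4 were lone shared sites, and among the 1000 strongest 239 and 262. Over the whole lists these sites made up 31.5% of the IFNg+IL4 peaks and 27.1% of the IL4 peaks. All of the 1000 strongest IL4 peaks were shared, and over all shared IL4 peaks 39.4% were lone.

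The STAT6 summits with IFNg+IL4 and with IL4 mostly lay within 50 bp of each other. The rule required the STAT6 peaks to overlap, and their median widths were 252 bp with IFNg+IL4 and 294 bp with IL4. Short distances between summits are therefore partly built into the choice of sites and are given as description. The IFNg+IL4 and IL4 summits lay a median of 19 bp apart (quartiles 8 and 36 bp), and 5798 pairs, 86.0%, were within 50 bp. In 99.1% of cases exactly 1 IFNg+IL4 peak overlapped the site. The median distance was 35 bp in the weakest strength class and 10 bp in the strongest, so it shortened with strength. At the other shared sites it was 22 bp, and 78.7% were within 50 bp. The IFNg+IL4 peaks over lone shared sites had a median fold of 8.92, against 11.5 with IL4, in lists from different libraries whose levels are not on 1 scale.

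At the edges of the rule the numbers were small. The least overlap between the 2 STAT6 peaks of a lone shared site was 12 bp and the median 220 bp. At 18 lone shared sites there was another factor's peak within 10 bp of an edge, the closest at 1 bp, and these sites were kept in. Another 13 shared sites were left out although the other factor overlapped by at most 10 bp, the least by 1 bp, while the median overlap among those left out was 243 bp.

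The strongest lone shared site lay inside Lipk, a gene of the lipase family (chr19:34041085-34041914). Its fold enrichment was 106 with IFNg+IL4 and 106 with IL4, at rank 7 with IFNg+IL4 and rank 6 with IL4. The next, 122 kb from Prep, a prolyl endopeptidase gene (chr10:44944700-44945696), had 92.6 with IFNg+IL4 and 92.0 with IL4. Sites inside Atrx, which encodes a chromatin remodeler (chrX:105916850-105917581), and Ankrd11, a chromatin regulator gene (chr8:122961463-122962837), had 96.5 and 90.9 with IFNg+IL4, against 98.1 and 73.2 with IL4. In these 4 both libraries listed the site near the top.

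Some of the strongest sites with IL4 ranked lower with IFNg+IL4, most of all the site inside Tax1bp1. The 12 strongest were picked by their value with IL4, so their ranks in the 2 lists are not on an equal footing. Inside Tax1bp1, an autophagy receptor gene (chr6:52747842-52748608), the fold was 40.9 with IFNg+IL4, rank 1482 of 21481, and 92.3 with IL4, rank 38 of 24927. Inside Cradd, a gene of a death-domain adaptor (chr10:95264695-95265419), it was 71.6 with IFNg+IL4, rank 357, and 97.5 with IL4, rank 15. Near Plxna1, a semaphorin receptor gene (chr6:89299702-89300518), it was 62.6 with IFNg+IL4, rank 414, and 82.7 with IL4, rank 66. With 1 library per treatment no spread is known, so whether these sites differ cannot be told apart from variation between libraries.

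The other 5 of the 12 strongest lay inside Tex2 (84.3 with IFNg+IL4, 94.2 with IL4), 8.73 kb from Wdr86 (79.8 and 98.8), 30.7 kb from Gm46911 (88.5 and 86.2), 93.2 kb from Akirin2 (77.9 and 99.7) and 106 kb from Hhip, the hedgehog-interacting protein gene (91.7 and 100.4). None of the 12 was within 5 kb of a protein-coding gene start in the table used. Their distance to the next peak of another factor ran from 1.15 kb at the Lipk site to 93.9 kb at the Atrx site.

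**Figure D3:**
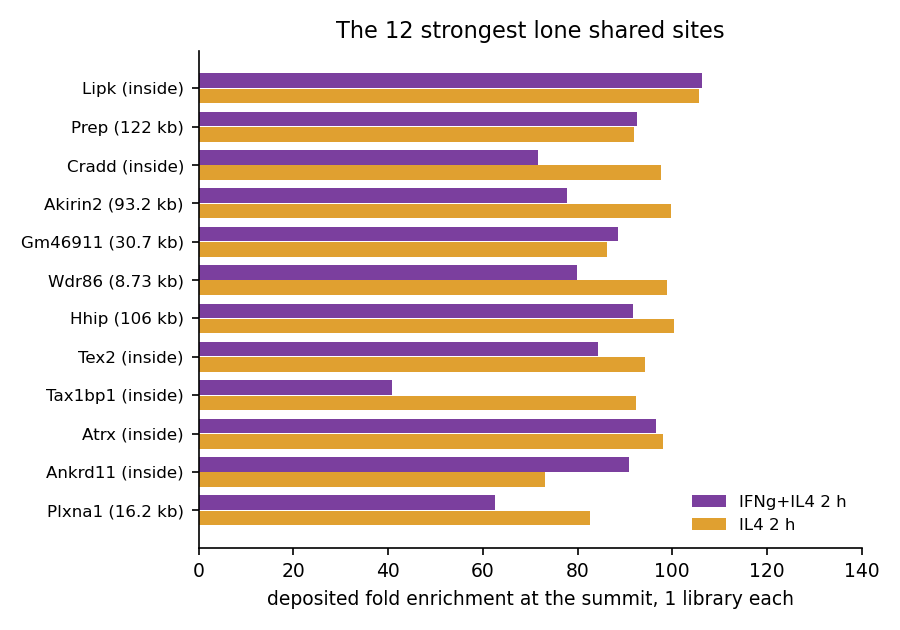
Fold enrichment of STAT6 over input at the 12 strongest lone shared sites (authors' values, linear axis), with IFNg+IL4 and with IL4, 1 library each. Folds were 40.9 to 106 with IFNg+IL4 and 73.2 to 106 with IL4, with the widest gap at the site inside Tax1bp1.

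Lone shared sites were rarely at gene starts. Of 6530 with usable positions 441 had their summit within 1 kb of a protein-coding gene start, 6.75% (6.16 to 7.39%), against 17.3% (16.6 to 18.1%) of the other shared sites. This difference moved with the MYC lists. Shared sites with a MYC peak were within 1 kb of a start in 32.3% (30.9 to 33.7%) of cases. Those that overlapped a factor but not MYC were so in 5.71% (5.12 to 6.34%), an interval that meets that of the lone shared sites. When the MYC lists were left out of the rule, the share at gene starts was 15.3%. Within strength classes the lone shared sites were below the MYC sites in 10 of 10 and above the sites without MYC in 7 of 10.

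The share at starts fell with strength, being 16.9% in the weakest class and 3.61% in the strongest. The median distance from summit to gene start was 29.9 kb, against 9.63 kb for shared sites with MYC and 34.1 kb for those with another factor but not MYC. By gene span, 55.6% lay inside a protein-coding gene, 22.5% outside but within 20 kb of one and 21.9% farther away. Exons, introns and UTRs were not told apart, since only spans and starts were used.

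**Figure D4:**
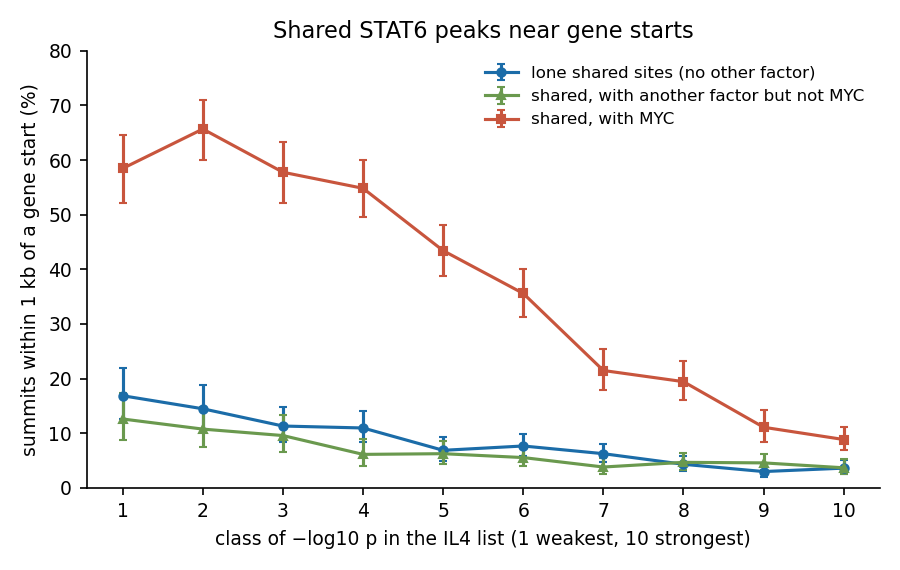
Share of sites with a summit within 1 kb of a protein-coding gene start (percent, exact 95% intervals) by class of −log10 p in the IL4 list, for lone shared sites, shared sites with another factor but not MYC, and shared sites with MYC. Lone shared sites were at 16.9% in class 1 and 3.61% in class 10, below the MYC sites in every class.

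Although no other factor overlapped them, many lone shared sites had one nearby. The nearest peak of any of the 4 factors was a median of 5.16 kb away (quartiles 1.53 and 15.5 kb). It was within 500 bp for 10.9%, within 1 kb for 19.1%, within 5 kb for 49.3% (48.1 to 50.5%) and within 20 kb for 80.6%. A CEBPB peak was within 5 kb of 32.4% of the sites, a JUNB peak of 22.5%, a MYC peak of 22.4% and an IRF1 peak of 13.2%. For the 4681 IL4 peaks that lacked both the other factors and an IFNg+IL4 peak, the share within 5 kb was 47.1% and the median distance 5.66 kb. In the strongest class of lone shared sites 47.1% (43.7 to 50.5%) were within 5 kb, and in the weakest 55.1% (48.9 to 61.1%), with intervals that overlap.

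The X chromosome held more of them in proportion. Of 358 shared sites on X, 189 were lone, 52.8% (47.5 to 58.1%), against 39.1% (38.3 to 39.8%) on the autosomes, where single chromosomes ran from 33.8% on chromosome 19 to 42.5% on chromosome 18. On X, 13.7% of shared sites overlapped MYC, 24.0% JUNB, 29.6% CEBPB and 7.26% IRF1, against 26.7%, 33.0%, 34.4% and 13.0% on the autosomes. Each of the 4 factors was listed less often over shared STAT6 sites of X, with an interval that meets the autosomal one only for CEBPB. Strength also differed, since the median −log10 p of lone shared sites was 23.2 on X and 29.4 on the autosomes, and its part in the difference was not tested. The labels used here do not give the sex of the mice.

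Most lone shared sites had no other lone shared site within 10 kb. Other STAT6 peaks were not counted here. Linked when no more than 10 kb apart, the lone shared sites formed 5632 chains, of which 4766 were a single site, 70.7% of all lone shared sites. There were 685 pairs, 135 chains of 3, 32 of 4 and 12 of 5, and 1 each of 6 and 8. The chain of 8, which covered 25.9 kb of chr7:125574035-125599891, began in the last part of Il4ra, the gene of the IL4 receptor alpha chain, and ran downstream of it. The chain of 6, over 10.9 kb of chr1:191084950-191095825, lay between Nsl1 and Batf3, a transcription factor gene of dendritic cells. Chains of 5 included those at Cd83, a surface protein of activated antigen-presenting cells, Vmp1, an autophagy gene, Snd1 and Rgs7bp.

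Within 20 kb of a span, 4882 of 21887 protein-coding genes, 22.3%, had a lone shared site, and 32.4% had a shared site with another factor. Any shared STAT6 peak was near 41% of genes and any IL4 peak near 49.8%. In a list of 17 genes of IL4 receptor signalling 10 had a lone shared site, and in a list of 30 known IL4 response genes 24 had one. A shared site that overlapped another factor was near 14 of the 17 and 25 of the 30. Genes of the response list had a median of 1.5 lone shared sites each and a median length of 11.4 kb, against 0 sites and 17.2 kb over all protein-coding genes. The lists share Il4ra, Cish and Socs1, and were written with earlier results on STAT6 binding near IL4 genes known. Of the 155 shared peaks near the response genes 65, 41.9% (34.1 to 50.1%), were lone, an interval that holds the 39.4% over all shared peaks. Near the signalling genes it was 25 of 76, or 32.9% (22.5 to 44.6%).

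Near the signalling genes, the receptor and its inhibitors held most of the sites. Il4ra had 7 lone of 13 shared peaks, and 1 of them stood well above the rest. That site, 9.44 kb beyond the gene (chr7:125588730-125589091), had a −log10 p of 93.0 with IFNg+IL4 and 47.6 with IL4. The other 6 near Il4ra ranged between 10.9 and 20.4 with IFNg+IL4, and between 8.41 and 21.6 with IL4, and 3 of these IL4 peaks overlap a single IFNg+IL4 peak. The site 14.6 kb from Il4ra lay nearer to Il21r, at 9.2 kb. Il2rg, the common gamma chain of the receptor, had 1 lone site and no other shared peak. That site was weak, with 7.53 with IFNg+IL4, rank 19585 of 21481, and 5.86 with IL4, rank 24482 of 24927.

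Cish, a cytokine-induced suppressor of STAT signalling, had 5 lone of 9 shared peaks. Its strongest, 0.510 kb beyond the gene (chr9:107303133-107303599), had a −log10 p of 99.5 with IFNg+IL4 and 93.3 with IL4. A second, with its summit 0.052 kb from the gene start (chr9:107296392-107296937), had 64.7 with IFNg+IL4 and 57.2 with IL4. Peaks of other factors lay close to this one, at 0.144 kb.

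Among the other inhibitors, Ptpn1, a phosphatase that acts on JAK kinases, had 3 lone of 8 shared peaks, Socs1, the inhibitor of JAK kinases, 2 of 9, Socs3, a related inhibitor, 1 of 8, Socs2 1 of 2, and Inpp5d, the lipid phosphatase SHIP1, 1 of 5. At Socs1 and Socs3 most shared peaks overlapped another factor, and their lone sites were weak with IL4. The strongest at Socs1 had a −log10 p of 36.7 with IFNg+IL4, from a peak whose summit lay 766 bp away, and 9.32 with IL4. The site at Socs3 had 17.3 with IFNg+IL4 and 9.43 with IL4. Jak1, a kinase bound to the receptor, had 2 of 3, and 1 of these, inside the gene (chr4:101159190-101159734), had 90.6 with IFNg+IL4 and 241 with IL4. Irs2, an adaptor of the IL4 receptor, had 2 of 4, with 62.2 with IFNg+IL4 and 105 with IL4 at the stronger. Stat6 itself, Jak2, Jak3, Tyk2, Il13ra1, Ptpn2 and Ptpn6 had none, and are named here as the rest of the list.

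Among the transcription factor genes of the response list the counts ran from 8 at Batf3 to 0 at Klf4. Batf3 had 8 lone of 13 shared peaks, or 15.8 lone sites per 100 kb of the gene with its flanks. Those 13.3, 10.2 and 9.28 kb from Batf3 lay nearer to Nsl1, at 0.564, 3.61 and 4.58 kb. The strongest at Batf3 lay 6.14 kb outside the gene (chr1:191114855-191115377), with a −log10 p of 159 with IFNg+IL4 and 152 with IL4. Bcl6, which encodes a repressor whose sites resemble those of STAT proteins, had 5 of 9, all with a −log10 p of at most 19 with IL4. Of its 2 annotated starts the inner one had a lone site at 0.183 kb (chr16:23981385-23981536), with 66.7 with IFNg+IL4 and 15.3 with IL4.

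Pparg, the nuclear receptor of lipid metabolism in alternatively activated macrophages, had 3 lone of 9 shared peaks. The strongest of these, inside the gene (chr6:115469783-115470240), had 119 with IFNg+IL4 and 74.9 with IL4. Myc had 2 of 4, and Irf4 and Egr2 had 1 of 3 and 1 of 2. Kdm6b, a histone demethylase gene, had 1 of 4.

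Mrc1, which encodes the mannose receptor CD206, had 6 lone of 12 shared peaks. The strongest, 2.22 kb from its start inside the gene (chr2:14231290-14231896), had a −log10 p of 143 with IFNg+IL4 and 184 with IL4. The other 5 lay between 24.6 and 30.3 with IFNg+IL4, and between 15.5 and 47.5 with IL4. Ptgs1, the constitutive cyclooxygenase gene, and Clec10a, a lectin gene, had 3 of 5 each, Pdcd1lg2, which encodes the T-cell inhibitory ligand PD-L2, 3 of 15, and Flt1, a VEGF receptor gene, 4 of 9. The Flt1 sites 19.6 and 7.35 kb from that gene lay inside Pan3 and 5.75 kb from Pan3.

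Alox15, a lipoxygenase gene, had 2 lone of 2 shared peaks, Retnla 2 of 3 and the chemokine gene Ccl24 2 of 5. Both Ccl24 sites lay nearer to Hip1, at 5.80 and 6.44 kb, than to Ccl24, at 18.8 and 18.2 kb. Arg1, Mgl2, Tgm2, Cdh1 and Ch25h had 1 each, and Ccl17 1 of 1. Chil3, Cd209a and Ccl22 had no shared peak within 20 kb, while all shared peaks of Matk, Slc7a2 and Klf4 overlapped another factor. Mgl2 and Clec10a are neighbours and share a site.

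The ranks of some sites differed widely between the lists. Inside Arg1, the arginase gene, the site at chr10:24925727-24926059 had a −log10 p of 11.9 with IFNg+IL4, rank 14176, and 89.9 with IL4, rank 3140. A site 19.1 kb from Retnla (chr16:48863254-48863813), nearer to Retnlg at 9.09 kb, had 23.5 with IFNg+IL4, rank 8057, and 153 with IL4, rank 1726. By contrast the site 7.82 kb from Tgm2, a transglutaminase gene (chr2:158154057-158154325), had 110 with IFNg+IL4, rank 1855, and 44.4 with IL4, rank 5927. These single sites stood lower or higher in 1 list than in the other, and with 1 library each the gap has no error.

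**Figure D5:**
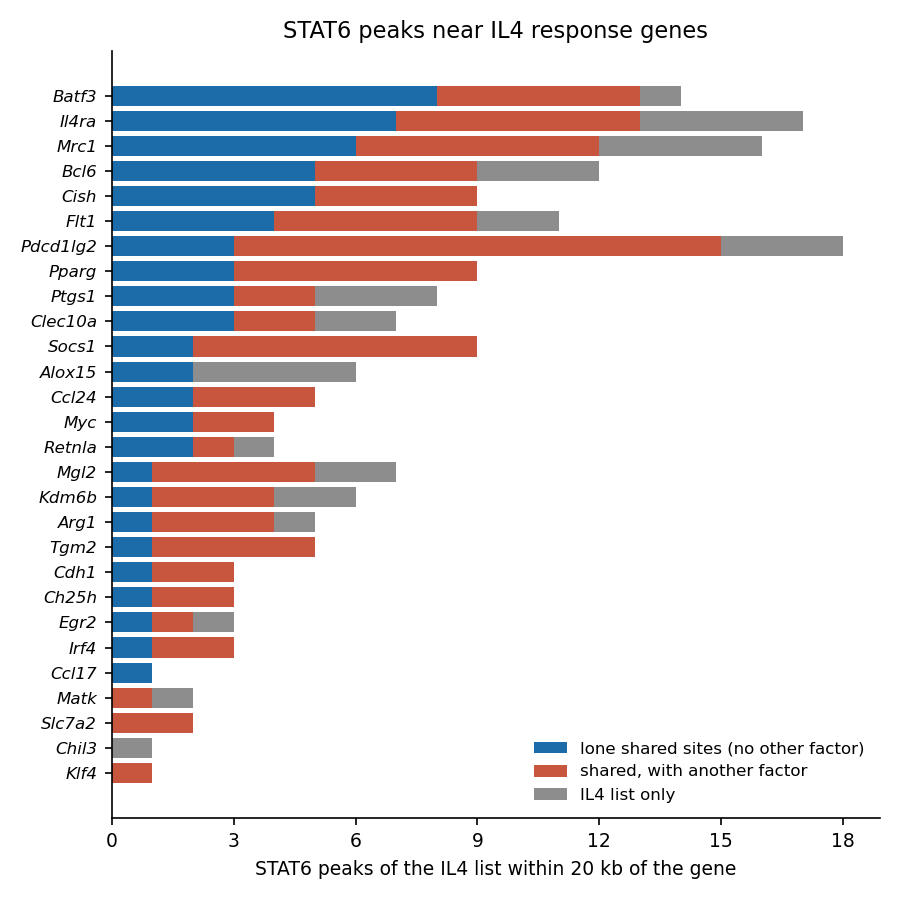
Number of STAT6 peaks of the IL4 list within 20 kb of each IL4 response gene that has any, split into lone shared sites, shared sites that overlap another factor and peaks in the IL4 list only. Batf3 had 8 lone of 13 and Il4ra 7 of 13, whereas Socs1 had 2 of 9 and Pdcd1lg2 3 of 15. Some of the counted peaks lay nearer to another gene.

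In the 7 other gene lists the lone share of shared peaks was below the 41.9% of the IL4 response list, with wide intervals. Near 35 IFNg response genes 33 of 96 shared peaks were lone, 34.4% (24.98 to 44.8%), at 18 genes. Ciita, the master regulator of MHC class II genes, had 6 of 8, Stat2, an interferon signalling gene, 3 of 4, and Cybb, a subunit of the phagocyte NADPH oxidase, 3 of 5. Nos2, the inducible nitric oxide synthase gene, had 2 of 2; it is 1 of 6 genes with 2 lone sites and was picked after its values were seen. The interval for this list includes the 39.4% of all shared peaks.

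Near 30 inflammatory and AP-1 genes 22 of 93 shared peaks were lone, 23.7% (15.5 to 33.6%), at 17 genes. Jun, an AP-1 gene, had 4 of 6. Ccl3 and Ccl4, neighbouring chemokine genes, had 3 of 8 each and share these peaks, and Tnf and Batf had 2 of 8 and 2 of 6. Near 25 macrophage identity genes 18 of 102 were lone, 17.6% (10.8 to 26.4%), at 11 genes. Runx1, a hematopoietic factor gene, had 6 of 16, Csf1r, the receptor of the macrophage growth factor, 2 of 9, Irf8 2 of 3, and Spi1, the gene of PU.1, 1 of 5. The intervals of both lists end below the 39.4% over all shared peaks. They treat peaks as independent, although many lie at the same gene, such as the 16 at Runx1. The lower lone shares are therefore given as description of these lists.

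Near 25 genes of lipid and sterol handling 20 of 65 shared peaks were lone, 30.8% (19.9 to 43.4%), at 11 genes, among them the cholesterol exporter gene Abcg1 (3 of 6), the scavenger receptor gene Cd36 (3 of 8), and Rxra and Ppargc1b, nuclear receptor and coactivator genes (2 of 2 each). Near 30 genes of ribosome biogenesis and growth it was 11 of 32, at 9 genes, with 2 of 3 at Nop58 and at Eif4e. Markers of other cell types had a lone site at 4 of 25 genes, and genes of other organs at 3 of 25, or 16% and 12% against 22.3% of all protein-coding genes. These are binding near a gene and not its expression, which was not analysed here.

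Over all genes the highest counts fell on long ones. Ust, a sulfotransferase gene 314 kb long, had 11 lone of 13 shared peaks. Gnaq, a G protein subunit gene, Hivep3, a zinc finger factor gene, and Fyn, a Src family kinase gene, had 10 of 17, 10 of 15 and 10 of 17. Cradd, Prkch, Pip4k2a, Pde4d, Dock10 and Tiam1 had 9 each. Their spans ran from 149 kb at Cradd to 1302 kb at Pde4d, against the median of 17.2 kb, so the number per 100 kb was 0.671 at Pde4d and at most 4.75, at Cradd.

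At a few loci every shared STAT6 peak was lone. Of 1574 genes with 4 or more shared peaks 24 were of this kind, or 1.52%. Ctnnd1, which encodes the catenin p120, had 7 of 7. Tbc1d4, 1110059E24Rik, Pcca, Pik3r1, a regulatory subunit gene of PI3 kinase, Ttc28, Mki67, the gene of the Ki-67 proliferation antigen, and Rgs7bp had 5 each, and Apex2 and Mtmr10 4 each. The strongest lone site of Ctnnd1 reached a −log10 p of 138 with IL4 and that of Apex2 232.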

How the data were processed

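ChIP-seq peaks of 5 factors were taken from 16 lists and 1 input list, each from 1 library, with the library as the group. Per the submitters' processing notes Bowtie2 2.2.6 and MACS2 2.1.0.20150731 were used on mm10/GRCm38. The deposited fold enrichment, a ratio to input at the summit, the deposited −log10 p with its −log10 q, and the deposited score came from the authors' peak caller, and these served only to describe, rank or filter peaks within a list. The untreated JUNB list met no q threshold, unlike the others, whose −log10 q was at least 2. Only chromosomes 1 to 19, X and Y were kept, and peaks overlapping an input peak were removed, which took none from the STAT6 lists.

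Overlap was 1 bp. Shares have exact Clopper-Pearson 95% intervals. The overlap, distance and motif searches were checked on simulated data, and the intervals were not. No test was run, with 1 library per group. Gene spans (21887 protein-coding genes) came from a RefSeq table of GRCm38, and starts of 17492 of them, none on chromosome 18, from its promoter table, so chromosome 18 was left out of shares at gene starts. No genome sequence was used, so motifs were searched in promoter windows only. All 242 entries of 9 gene lists were found. The sites, lists, motifs and alternatives were chosen with earlier results of these data known. Genes were named when they held or lay nearest the 12 strongest sites, were among the 10 with most sites, belonged to the IL4 lists with a site or led another list, or had at least 4 shared peaks, all lone. Alternatives varied the overlap, the thresholds, the lists and the windows. Python 3.11.15, numpy 2.4.6, pandas 2.3.3, scipy 1.17.1 and matplotlib 3.10.9 were used.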

Additional observations from a re-analysis of the deposited data

How the results depend on the processing

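No paired analysis was possible because each group is 1 library and the labels carry no replicate numbers; no replicate could be left out either. The number of lone shared sites stayed within 1.5 times of 6743 in every alternative run, from 5990 to 8538, and leaving out any 1 of the 14 lists gave 6743 to 7495. The share of shared sites that are lone (39.4%) was 35.1% with no other peak allowed within 500 bp, 43.7% when only summits within 150 bp excluded a site, 44.3% with a −log10 q of at least 5 in the other lists, 43.7% without the CEBPB IFNg list, 49.8% without the MYC lists and 41.0% with untreated JUNB at a −log10 q of at least 2. The share within 1 kb of a gene start (6.75%) was 4.83% with none within 500 bp, 8.69% with summit exclusion, 6.05% with a −log10 q of at least 5 for STAT6 and 15.3% without MYC. It was 4.04% and 11.7% with windows of 500 and 2500 bp, and 8.44% with span ends as starts where the table has none, an alternative chosen after seeing the data. The N4 STAT6 palindrome lay within 25 bp of 10.8% of promoter summits (17.3% within 50 bp). Within 50 bp the share ran from 12.4% (9.77 to 15.5%) without MYC to 20.8% (13.4 to 30.0%) with the stricter STAT6 lists. The median distance between paired summits (19 bp) was 17 bp with the stricter STAT6 lists and 20 bp without MYC. Beyond the lists and windows themselves the cause was not tested. IL4 response genes with a site numbered 19 to 25 in all alternatives, against 24. Depth is not given in the lists, so a weak peak of another factor may be below its threshold, and the 5 MYC and 3 IRF1 lists differ widely in length.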
